A study of Mus musculus with 4 samples.

Results

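Cpe encodes carboxypeptidase E, and its footprints were followed here through 1 of the 23175 transcripts with a count in any library, ENSMUST00000048967. The transcript was chosen by this ID, with its high measured level already known, so its levels and their difference between cell types are given as descriptions without a test. The deposited files hold transcript IDs only and no gene names; the name Cpe was assigned to the ID when the transcript was chosen and was not checked against the files. All 4 of its regions, lettered a to d in the files, had counts in all 4 libraries.

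Carboxypeptidase E acts late in the making of peptide hormones and neuropeptides. Prohormone convertases first cut the precursor after pairs of basic residues, and carboxypeptidase E then trims the lysines and arginines left at the new carboxy end, inside dense core secretory granules. Neurons and endocrine cells are its best known sites, astrocytes also make and release it, and loss of the enzyme in the fat mouse leads to obesity and incompletely processed peptides.

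The samples were ribosome footprints, that is RNA fragments shielded by ribosomes from RNase I, taken at postnatal day 21 from brains of the strain C57BL/6J. The astrocyte group came from mice with the Aldh1l1::eGFP-RpL10a transgene and the neuron group from mice with Snap25::eGFP-RpL10a. In both, a GFP-tagged protein of the large ribosomal subunit is made under the named driver gene, so a group is whichever cells of the brain use that driver, and tagged ribosomes were pulled out with antibodies to GFP. There were 2 libraries per cell type, each from 2 pooled brains, and no other agent or genotype is named for either group. Untagged littermates are mentioned in the labels' protocols, but no library of theirs was analysed here, so the background of the pull-down is not known.

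The libraries held 7210269 to 12833187 counts, and 21785 to 22150 transcripts had a count in a given library. Across 18819 transcripts the log2 CPM (counts of a transcript per 1000000 counts of its library) differed with an SD of 0.307 within the astrocyte pair and 0.5 within the neuron pair. From astrocyte 1 and 2, neuron 1 differed with an SD of 0.65 and 0.68 and neuron 2 with an SD of 0.826 and 0.865, so neuron 1 was the closer of both. The labelled cell types could not be checked against marker genes, because no file names the transcripts.

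Cpe was among the most heavily footprinted transcripts of both cell types, and its level was higher in astrocytes. It measured 6466 CPM in astrocyte 1, 6678 CPM in astrocyte 2, 2805 CPM in neuron 1 and 2009 CPM in neuron 2. Both astrocyte libraries lay above both neuron libraries. The astrocyte mean was 6572 ± 150 CPM and the neuron mean 2407 ± 563 CPM (SD, n = 2 each), a ratio of 2.73. Of the 18819 transcripts tested, 25.6% had both astrocyte libraries above both neuron libraries in CPM, so the separation alone is common.

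These levels rest on 47157 and 53211 Cpe counts in astrocyte 1 and 2 and on 20222 and 25778 in neuron 1 and 2. About 1 footprint in 155 and 1 in 150 was of Cpe in the astrocyte libraries, against 1 in 357 and 1 in 498 in the neuron libraries. As a share of the library, Cpe took 0.6466% of astrocyte 1 (95% Wilson interval 0.6408% to 0.6525%) and 0.2009% of neuron 2 (0.1984% to 0.2033%). Such intervals cover counting error only and are far narrower than the gap between the neuron libraries. Compared with the median detected transcript of the same library, Cpe stood 393 and 409 times higher in astrocyte 1 and 2 and 179 and 126 times higher in neuron 1 and 2.

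Cpe agreed more closely between the astrocyte pools than between the neuron pools. Astrocyte 2 was 1.03 times astrocyte 1, a log2 difference of 0.0465, when the median size of that difference over the 18819 transcripts was 0.142. Neuron 1 was 1.4 times neuron 2, a log2 difference of 0.482, larger than that of 72.5% of the transcripts, for which the median size was 0.29. Of the 100 most abundant transcripts, 41 differed less than Cpe within the astrocyte pair and 54 within the neuron pair, so among them Cpe stood near the middle in both. The neuron library with more Cpe is thus neuron 1, the library that lies nearer to the astrocyte libraries over all transcripts. Whether that nearness has a part in its Cpe level was not tested. Set against single libraries, astrocyte levels were 2.31 and 2.38 times that of neuron 1 and 3.22 and 3.32 times that of neuron 2.

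Scaled with TMM factors, which correct library totals for differences in composition, the fitted log2 fold change of Cpe, neuron against astrocyte, was -1.57 (SE 0.238), that is 2.96-fold higher in astrocytes. Of the 18819 transcripts, 1087 (5.78%) had a still lower fold change, and the median over all was 0.03. Among the 100 most abundant transcripts, near copies counted separately, 23 had a lower fold change than Cpe. The median of the 100 was 0.02, with 49 below 0 and 51 above 0. Without neuron 1 the fold change was -1.85 and without neuron 2 it was -1.32. In footprints of whole brains, fewer ribosomes per messenger, less Cpe messenger per cell and a smaller part of the tagged cells making it cannot be told apart.

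**Figure D1:**
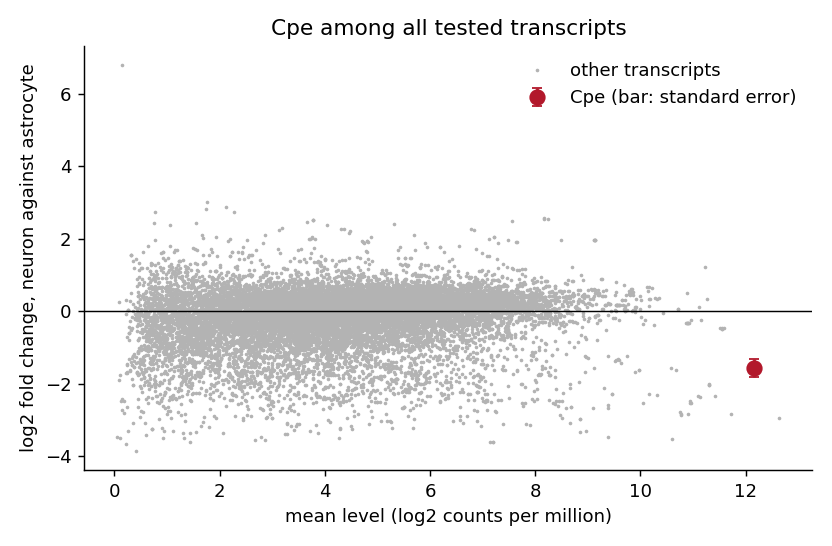
Fitted log2 fold change of each of the 18819 tested transcripts (vertical axis, neuron against astrocyte) against its mean level (horizontal axis, log2 CPM). Each grey point is a transcript, and the red point is Cpe with its standard error, at -1.57 and near the right edge of the plot, where few transcripts lie.

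In rank, Cpe stood second in both astrocyte libraries, eighth in neuron 1 and ninth in neuron 2. These are ranks of counts and not of counts per length, since the files give no lengths, so a long transcript is favoured. Only 2 transcripts were among the 10 highest of all 4 libraries, Cpe and ENSMUST00000179238. By mean CPM Cpe held rank 2 in astrocyte and rank 8 in neuron samples.

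The neighbours in that order were clearly apart in astrocytes and not in neurons. In astrocyte samples rank 1, ENSMUST00000174064, measured 10838 ± 660 CPM, Cpe 6572 ± 150 CPM and rank 3 5704 ± 269 CPM (SD, n = 2 each), with no overlap between libraries. In neuron samples rank 7 measured 2528 ± 736 CPM, Cpe 2407 ± 563 CPM and rank 9 2381 ± 541 CPM (SD, n = 2 each). Ranks 5 to 11 in neurons all overlapped Cpe, so its place among them is within the spread of the pools. The most abundant transcript of a library exceeded Cpe less in some libraries than in others. Cpe reached 62.3% and 59.1% of it in astrocyte 1 and 2, 86.5% in neuron 1 and 49% in neuron 2.

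**Figure D2:**
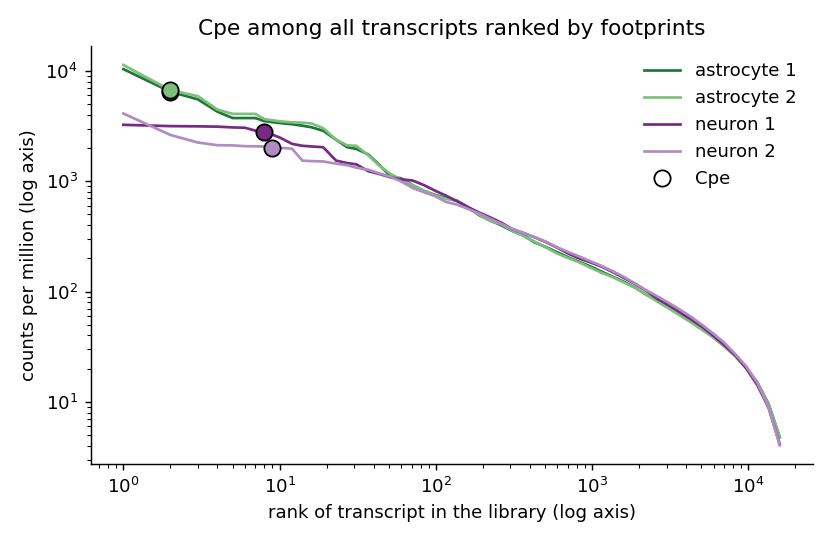
CPM of the transcripts of each library (vertical log axis) against their rank (horizontal log axis), with 1 line per library and Cpe as an outlined point on each. Cpe sits at rank 2 on both astrocyte lines, at rank 8 on the neuron 1 line and at rank 9 on the neuron 2 line, where the lines are flat.

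Many transcripts in the files carry equal or nearly equal counts. Cpe was not one of these. In total 0 other transcripts shared its region b counts, and 0 lay within 10% of its total counts in every library. Several of the transcripts ranked above Cpe in neurons, however, were near copies of each other. With transcripts whose counts lay within 10% of a higher one in every library merged, Cpe kept rank 2 in astrocytes and moved from rank 8 to rank 4 in neurons.

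The transcripts most like Cpe in level were sought by the Euclidean distance of log2 CPM over the 4 libraries. The nearest was ENSMUST00000179238, at a distance of 1.35, with 3364 and 3490 CPM in astrocyte 1 and 2 and 3242 and 2119 CPM in neuron 1 and 2. Its astrocyte libraries also lay above its neuron libraries, but astrocyte 1 and neuron 1 were nearly equal, and its fitted log2 fold change was -0.47. The 4 nearest transcripts, at distances of 1.35 to 1.4, differed from this one by at most 3.7% in any library and are therefore 1 profile. No transcript came close to Cpe in all 4 libraries.

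The letters a to d divide the transcript, and region b took nearly all Cpe footprints. What each letter stands for is not stated in the labels or files. Region b held 97.16% and 97.2% of the Cpe counts in the astrocyte libraries, against 97.74% and 97.27% in neuron 1 and 2. Over all transcripts region b held 91.1% to 92.58% of a library. The Cpe footprints were thus more concentrated in region b than those of the libraries as a whole, in all 4 libraries. This is not particular to Cpe. Of the 7382 transcripts with 1000 or more region b counts, 37.2% had less region a relative to region b than Cpe. The transcript nearest in level, ENSMUST00000179238, had region a at 0.449% of region b, against 2.74% for Cpe.

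By region, the levels fell by orders of magnitude from b to d. Region b of Cpe measured 6282 and 6491 CPM in astrocyte 1 and 2 and 2741 and 1954 CPM in neuron 1 and 2. Region a measured 180.4 and 181.5 CPM in the astrocyte pair, and 62.4 and 54.2 CPM for neuron 1 and 2. Both regions were higher in every astrocyte library than in either neuron library, as the total was. In the total, 25.6% of the 18819 transcripts were separated in this direction. How many were so within a single region was not counted. Regions c and d measured at most 4.14 and 1.51 CPM.

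**Figure D3:**
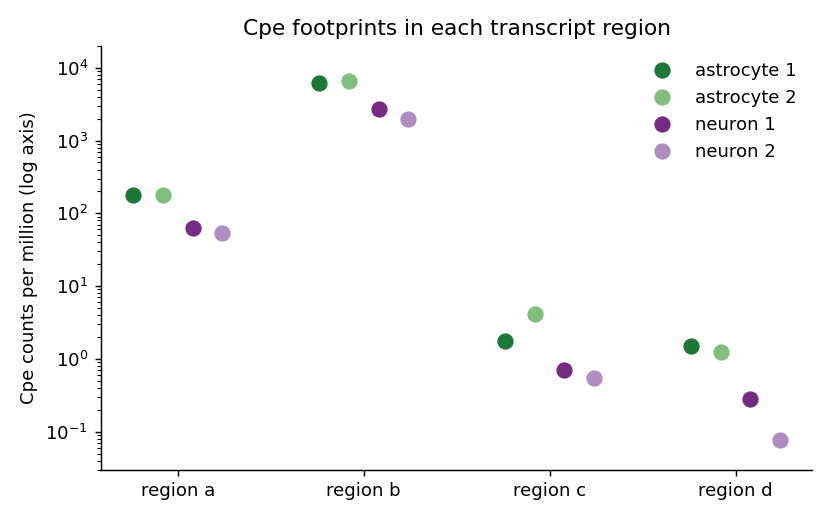
CPM of Cpe (vertical log axis) in regions a to d, with 1 point per library. Region b lies between 1954 and 6491 CPM and region a between 54.2 and 181.5 CPM. In each region both astrocyte points lie above both neuron points, as in the total, and in regions c and d on few counts. How many other transcripts are separated so in a single region was not counted.

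Region a, second to b in counts, made up a modest part of Cpe. Its 1316, 1446, 450 and 695 counts in astrocyte 1 and 2 and neuron 1 and 2 were 2.87%, 2.8%, 2.28% and 2.77% of the region b counts. Neuron 1 was the low library, with a 95% Wilson interval of 2.07% to 2.5%, and the other 3 intervals together covered 2.57% to 3.03%. For comparison, region a summed over all transcripts came to 8.75% ± 0.369 of region b for astrocytes and 7.43% ± 0.2 for neurons (SD, n = 2 each). In the 7382 transcripts whose region b counts reached 1000 or more, the median was 4.24% and the middle 50% lay between 1.57% and 9.35%. Cpe, at 2.74% over all libraries, was above 37.2% of them, and above 35 of the 100 most abundant transcripts.

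High as it is in total, Cpe therefore ranked lower for region a alone. Among all region a counts it held rank 22 in astrocyte 1 and rank 25 in astrocyte 2, and rank 101 in neuron 1 and rank 113 in neuron 2. In region b it held ranks 2, 2, 7 and 10 in the same order.

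Whether region a changed relative to region b between the cell types was tested as an interaction of region and cell type, with the library as a further term. The change for Cpe was -0.17 on the log2 scale, neuron against astrocyte (SE 0.181, 95% interval -0.53 to 0.19), and did not pass the test (edgeR adjusted p = 0.756). Of the 8778 transcripts tested for this ratio, 1.08% passed. The median change of all 8778 was -0.21, and Cpe lay near the middle of the 8778, with 54.2% lower. The interval leaves room for a region a ratio in neurons from 0.53 lower to 0.19 higher on the log2 scale. When regions were each scaled by their own total, which removes a common shift of region a, the change was 0.07 (edgeR adjusted p = 0.937).

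As a share of all Cpe counts, region a held 2.79% in astrocyte 1 and 2.72% in astrocyte 2, against 2.23% in neuron 1 and 2.7% in neuron 2. The groups did not overlap, but astrocyte 2 and neuron 2 were nearly equal, and 34.2% of the 8778 transcripts were separated in this direction. The means differed by 0.293 percentage points (two-sided exact permutation p = 0.33, the smallest that 2 against 2 libraries can give). Without neuron 1 the difference was 0.058 percentage points, so the size of the difference rests on that library.

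**Figure D4:**
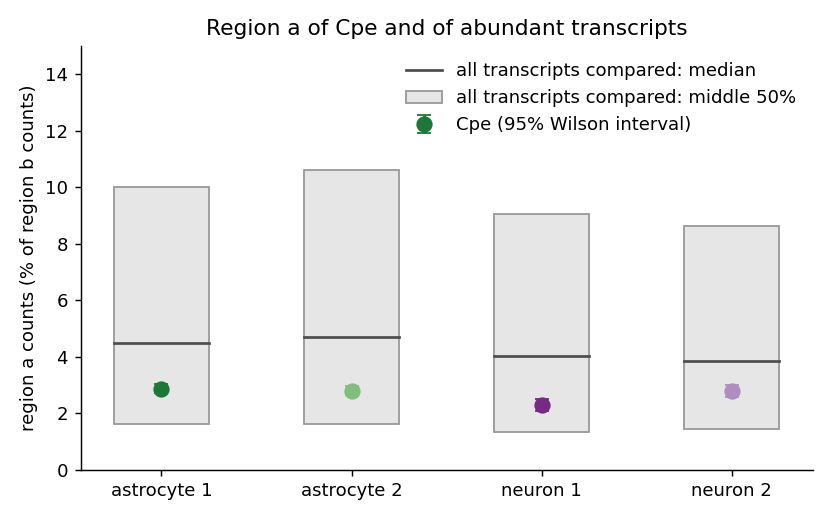
Region a counts as a percentage of region b counts (vertical axis) in each library. Points are Cpe with 95% Wilson intervals, grey boxes the middle 50% of the 7382 transcripts with 1000 or more counts in region b and dark lines their median. Cpe lies at 2.28% to 2.87%, inside the box and below the median of every library.

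Regions c and d of Cpe held few counts. Region c had 13 counts in astrocyte 1, 33 in astrocyte 2, 5 in neuron 1 and 7 in neuron 2, that is 0.0284%, 0.0638%, 0.0253% and 0.0279% of region b. Astrocyte 2 was high, and the other 3 libraries were nearly equal. The groups did not overlap, but by a narrow margin, and 19.0% of the 442 transcripts with at least 20 region c and 1000 region b counts were separated in this direction.

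Relative to region b, region c of Cpe differed by -0.76 on the log2 scale, neuron against astrocyte (SE 0.724). Cpe passed the filter on low counts through its region c counts in the astrocyte libraries alone, where it is high, so this value is a description. Fitted with no filter, over 7575 transcripts, the change was -0.73 and did not pass the test (edgeR adjusted p = 0.889). The share of the 290 filtered transcripts that passed was 0%, by edgeR and by DESeq2, with 40 and 16 at an unadjusted p under 0.05. Without astrocyte 2 the Cpe change was -0.06 and without astrocyte 1 it was -1.23, so its size rests on which astrocyte library is used.

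Region d had 11 counts in astrocyte 1, 10 in astrocyte 2, 2 in neuron 1 and 1 in neuron 2, too few in the second astrocyte library to pass the filter of the test. These were 0.024%, 0.0193%, 0.0101% and 0.00399% of region b. Both neuron libraries lay below both astrocyte libraries, a separation in the same direction as in 22.0% of the 704 transcripts with at least 20 region d and 1000 region b counts. Of the 544 transcripts that could be tested for this ratio, 0.184% passed (edgeR adjusted p under 0.05). Summed over libraries, region d stood at 0.00669% of region b for neurons and 0.0215% for astrocytes, a ratio of 0.311 with an exact 95% counting interval of 0.0593 to 1.04. At the astrocyte level 9.65 region d counts would fall in the neuron libraries, where 3 were found. The interval reaches a ratio of 1 and leaves a difference in region d undecided. Fitted with no filter, the log2 change was -1.57, with an unadjusted p of 0.0296 and an edgeR adjusted p = 0.906 over 10466 transcripts.

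Cpe had more region c than region d counts in each library, 58 against 24 in all. Region c was 70.7% of both together (95% Wilson interval 60.1% to 79.5%), and 64.1% (48.4% to 77.3%) without astrocyte 2. These intervals pool the libraries and cover counting error only. Single libraries ran from 54.2% in astrocyte 1 to 87.5% in neuron 2. Over all transcripts region c was 33.8% of both. This order was noticed after the counts were seen. Among the 1873 transcripts with at least 20 region c and d counts, 369 (19.7%) had more region c than region d counts in every library, so the order is found in many transcripts besides Cpe. The lengths of the regions are not known, and a longer region collects more footprints.

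Compared with other transcripts, the place of regions c and d of Cpe depended on whether libraries were summed, as many transcripts have no count there. Over all libraries region c was 0.0407% of region b, where the median of the 7382 transcripts was 0.0386%, and region d was 0.0169%, where the median was 0.0944%. Region c of Cpe was above that of 50.4% of the 7382 transcripts and of 35 of the 100 most abundant, whose median was 0.0789%. Region d of Cpe was above that of 28.2% of the 7382 transcripts and of 19 of the 100 most abundant. No region d count at all was found in 2012 of the 7382, nearly all of those below Cpe. Within single libraries, where the median of region c was 0 in all 4 and that of region d in 3, Cpe was above 64.3% to 73.2% of the transcripts for region c and above 49.6% to 59.4% for region d.

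**Figure D5:**
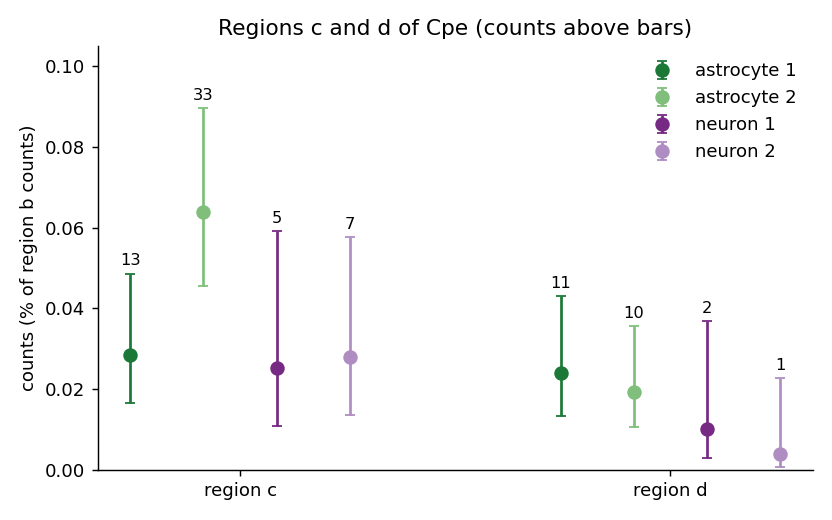
Region c and region d counts of Cpe as a percentage of region b counts (vertical axis), with 1 point per library, 95% Wilson intervals and the count above each. Astrocyte 2 stands highest in region c with 33 counts, and the neuron libraries have 2 and 1 counts in region d.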

How the data were processed

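Ribosome footprints were counted in 2 astrocyte and 2 neuron libraries. The deposited values are raw counts, 1 for each region of a transcript, and look unnormalized. Per the submitters' processing notes the tools were STAR 2.3.1z8, Bowtie2 2.2.2, Trimmomatic 0.32, FastQC 0.11.2, edgeR and bedtools, without role or order. Build, annotation, strand use and how reads matching more than 1 transcript were counted are not given in the sources. Reads of a library were joined across lanes, per the labels. Absent regions were read as 0.

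Regions were summed per transcript. edgeR 4.0.16 (R 4.3.3) fitted quasi-likelihood models to all transcripts that passed filterByExpr (minimum count 10), with TMM factors for levels. For regions, the interaction of region and cell type was tested with a term for each library, both regions carrying the library total as offset. P-values were adjusted over all transcripts tested (Benjamini-Hochberg, threshold 0.05), and DESeq2 1.42.0 was an alternative. SEs follow from the fitted log2 change and its F value. Likeness and spread were taken on log2 CPM (prior count 2). The level fit and the region a ratio fit, but not the fits of regions c and d, were run on simulated data. Those data had the same dispersion for all transcripts, with regions a and b drawn separately. They therefore do not show how the fits behave at the spread of these libraries.

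Replicates are separate pools. The edgeR p-values of the region ratios use a dispersion shared over transcripts, so they rest little on the spread of Cpe between its own pools. Degrees of freedom were 64.3 for region a of Cpe, and 15150 and 20932 for regions c and d fitted with no filter. Transcripts were named by a rule: Cpe, the 4 nearest in level, of which 1 ID is printed, and its neighbours in rank, of which 1 ID is printed. Cpe and all lists were chosen with earlier results of these data known. Lists of peptide processing, neuropeptide and cell type marker genes had no transcript IDs to match, and were not analysed here.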

Additional observations from a re-analysis of the deposited data

How the results depend on the processing

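The Cpe fold change of -1.57 kept its direction in 10 of 10 alternatives, from -1.85 to -1.32 with 1 library left out and -1.45 with library totals alone. As both astrocyte libraries lay well above both neuron libraries, leaving 1 out could not turn the direction, so only the size is informative. The region a ratio did not pass in any of 9 alternatives (edgeR or DESeq2 adjusted p 0.301 to 0.961). It turned to 0.07 with each region's own total and lay between -0.32 and -0.03 with 1 library left out. The region c ratio, -0.76, lay between -1.23 and -0.06 with 1 library left out; a mean count of at least 20 removed Cpe. The log2 ratio of region d lay between -2.43 and -1.09 with 1 library left out, and the region a share difference between 0.058 and 0.529 percentage points. The neuron rank moved to 4 with near-equal transcripts merged, an alternative chosen after seeing the data, as was the summed region d ratio. Transcripts with a changed region a ratio numbered 95; DESeq2 called 11, the scaling by region 12, and fits gave 1 to 207 with 1 library left out. For region c they numbered 0, and 5 under the minimum mean of 20. The cause of these differences was not tested.

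Both groups use the replicate numbers 1 and 2, and the labels do not describe them as pairs. The deviations from the group means of libraries with the same number had r = -0.0818 over 18819 transcripts. With the replicate block the Cpe fold change was -1.59, its region a and c ratios -0.17 and -0.75, and 84 transcripts had a changed region a ratio. Region d of Cpe could be fitted with no filter only, with all 4 libraries, at -1.57 (edgeR adjusted p = 0.906). Depth limits regions c and d, with 58 and 24 Cpe counts.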
